A study of Mus musculus with 20 samples.

Results

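The 9 genes described here encode the subunits of the AMPA receptors (4 genes, Gria1 to Gria4) and of the kainate receptors (5 genes, Grik1 to Grik5), which are ion channels opened by glutamate. All members of both families were taken, by gene symbol and whatever their values, out of the 57180 Ensembl gene identifiers of the deposited count table. All 9 passed the filter on low counts in every comparison. Poly(A) RNA had been sequenced from punches of 2 mouse brain regions. One was the PVT (paraventricular thalamic nucleus), which lies at the midline and takes part in wakefulness and aversive states. The other was the pIC (posterior insular cortex), which receives signals of pain and of the inner state of the body. There were 6 PVT libraries from STZ mice, 4 PVT libraries from control mice, 6 pIC libraries from STZ mice and 4 pIC libraries from control mice. STZ mice had received streptozotocin (STZ) intraperitoneally as 1 dose of 200 mg/kg. STZ destroys insulin-producing beta cells and is used to model painful diabetic neuropathy, and control mice had been given vehicle. Tissue of all groups was taken at week 7. The sources used here give no strain, genotype, age or sex. PVT and pIC libraries share mouse labels, and the sources used here do not say that libraries of a group came from separate mice, so p-values measure the spread between these samples.

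AMPA receptors are tetramers that carry most fast excitatory transmission in the brain, and kainate receptors are tetramers of a related family that act on both sides of the synapse and adjust transmitter release and excitability. Gria2 sets whether an AMPA receptor lets calcium pass, because ADAR2, the RNA-editing enzyme encoded by Adarb1, changes a glutamine codon of its pore loop into an arginine codon (the Q/R site). Grik1, Grik2 and Grik3 can form kainate receptors without other subunits, whereas Grik4 and Grik5 need one of them as a partner and raise the affinity for agonist. In thalamus these receptors serve the inputs from cortex and from ascending pathways, and in cortex they serve the inputs from thalamus and from other cortical cells.

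The pore-loop stretch around the Q/R site is shown because it is where the subunits differ in a property that gene counts do not measure. The sequences are sense-strand stretches of 30 bases from GENCODE M21 transcripts (GRCm38), 5′ to 3′, and the capitals mark the codon of the Q/R site as it stands in the genome.
Gria1: ggggccttcatgCAGcaaggatgtgacatt
Gria2: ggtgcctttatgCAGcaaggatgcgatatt
Gria3: ggtgcttttatgCAGcaaggatgtgatatt
Gria4: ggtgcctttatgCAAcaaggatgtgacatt
Grik1: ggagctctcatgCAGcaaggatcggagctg
Grik2: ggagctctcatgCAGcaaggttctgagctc
Grik3: ggctccctgatgCAGcaaggatctgaactg
Grik4: ggaggcttcatgCAGcaaggctccactatt
Grik5: ggtggcttcatgCAGcagggctcggagatc
The codon is CAG in 8 members and CAA in 1 member, Gria4, and both encode glutamine. Gria1 and Gria2 differ at 4 of these 30 bases. The edited members, known from work in rodents, are Gria2, Grik1 and Grik2, and the counts below add edited and unedited transcripts together.

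The libraries held between 17.9 M and 25.5 M counts. Values are CPM, the counts of a gene per M counts of its library, with library sizes adjusted by TMM factors over the 20 libraries. The summed CPM of 13 thalamus neuron markers was 477 to 2110 in PVT STZ, 480 to 1070 in PVT control, 157 to 209 in pIC STZ and 169 to 204 in pIC control libraries, so every PVT library stood above every pIC library. The summed CPM of 10 markers of cortical excitatory neurons was 550 to 1130 in PVT STZ, 267 to 1030 in PVT control, 1670 to 2900 in pIC STZ and 2350 to 2710 in pIC control libraries. The defining markers of cortical neurons were thus present in the PVT punches as well. The summed CPM of 11 markers of striatal projection neurons was 270 to 3820 in PVT STZ, 348 to 1610 in PVT control, 423 to 3800 in pIC STZ and 420 to 1470 in pIC control libraries, and no marker of these 3 lists was at 0 throughout a group. The striatal sum exceeded the thalamus sum in PVT STZ replicates 1 (3820 against 477), 2, 3 and 4 and PVT control replicates 2 and 4. It was the smaller sum in PVT STZ replicates 5 and 6 and PVT control replicates 1 and 3. Sums of different lists are not shares of cells. Of all lists of other cell types, only a hypothalamic one held a marker at 0 in every library of a group (Sim1 in pIC control). Markers of non-neuronal cells differed between the regions as well. The summed CPM of 9 choroid plexus markers was 1320 to 5920 in PVT and 5.86 to 128 in pIC libraries. That of 8 ependymal markers was 65.8 to 143 in PVT and 7.72 to 16.2 in pIC libraries. The oligodendrocyte score (mean log2 CPM of 8 markers) was 8.01 to 8.8 in PVT and 6.84 to 7.93 in pIC libraries. In such bulk punches, fewer cells of a type and less RNA per cell cannot be told apart.

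All 9 subunits were detected in both regions, and the plot of CPM per library shows them by group. To compare genes, CPM was divided by the length in kilobases of all annotated exons of the gene (merged). On that scale Gria1, a subunit of many activity-dependent AMPA receptors, was the highest member in every group, with a mean of 73.2 CPM per kilobase in PVT STZ, 68.4 in PVT control, 52.6 in pIC STZ and 49 in pIC control libraries. Its lowest library stood above the highest library of the next member in each group.

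Gria2 and Grik5, a partner subunit of kainate receptors found in most of the brain, came next. Gria2 averaged 23.9 CPM per kilobase in PVT STZ and 22 in PVT control libraries, and Grik5 averaged 23.9 and 21.7 in the same groups. In pIC the 2 exchanged places, with Grik5 at 34.1 in pIC STZ and 32 in pIC control libraries, and Gria2 at 29.4 and 29.5. The ranges of these neighbours overlapped in all 4 groups, so their order was not resolved. Gria3 averaged 12.6, 10.3, 24.2 and 24.3 CPM per kilobase in PVT STZ, PVT control, pIC STZ and pIC control libraries, and Gria4 averaged 13.1, 13, 13.9 and 15.4 in the same order. Gria3 therefore overlapped Gria4 in both PVT groups and stood above it in both pIC groups.

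Grik3 averaged 8.46 to 10.6 CPM per kilobase over the 4 groups. The lowest 3 members in every group were Grik4 (3.53 to 3.73), Grik2 (2.64 to 4.07) and Grik1 (1.11 to 2.27). Grik1 was the lowest member in each group, and only in PVT STZ libraries did its range reach that of the member above it. These orders depend on which transcript a gene uses. With the shortest annotated transcript that holds the pore stretch, Gria2 headed every group, at 92.5 CPM per kilobase in PVT STZ, 84.9 in PVT control, 113 in pIC STZ and 114 in pIC control libraries, and Gria1 had 82.5, 77.1, 59.3 and 55.3. The ranges of the 2 genes overlapped in PVT on that scale and not in pIC. That scale uses 4.03 kilobases for Gria2 in place of 15.5, and 1.54 kilobases for Grik2 in place of 13.2. The counts do not tell transcripts apart, so only differences of the same gene between groups are compared below.

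**Figure D1:**
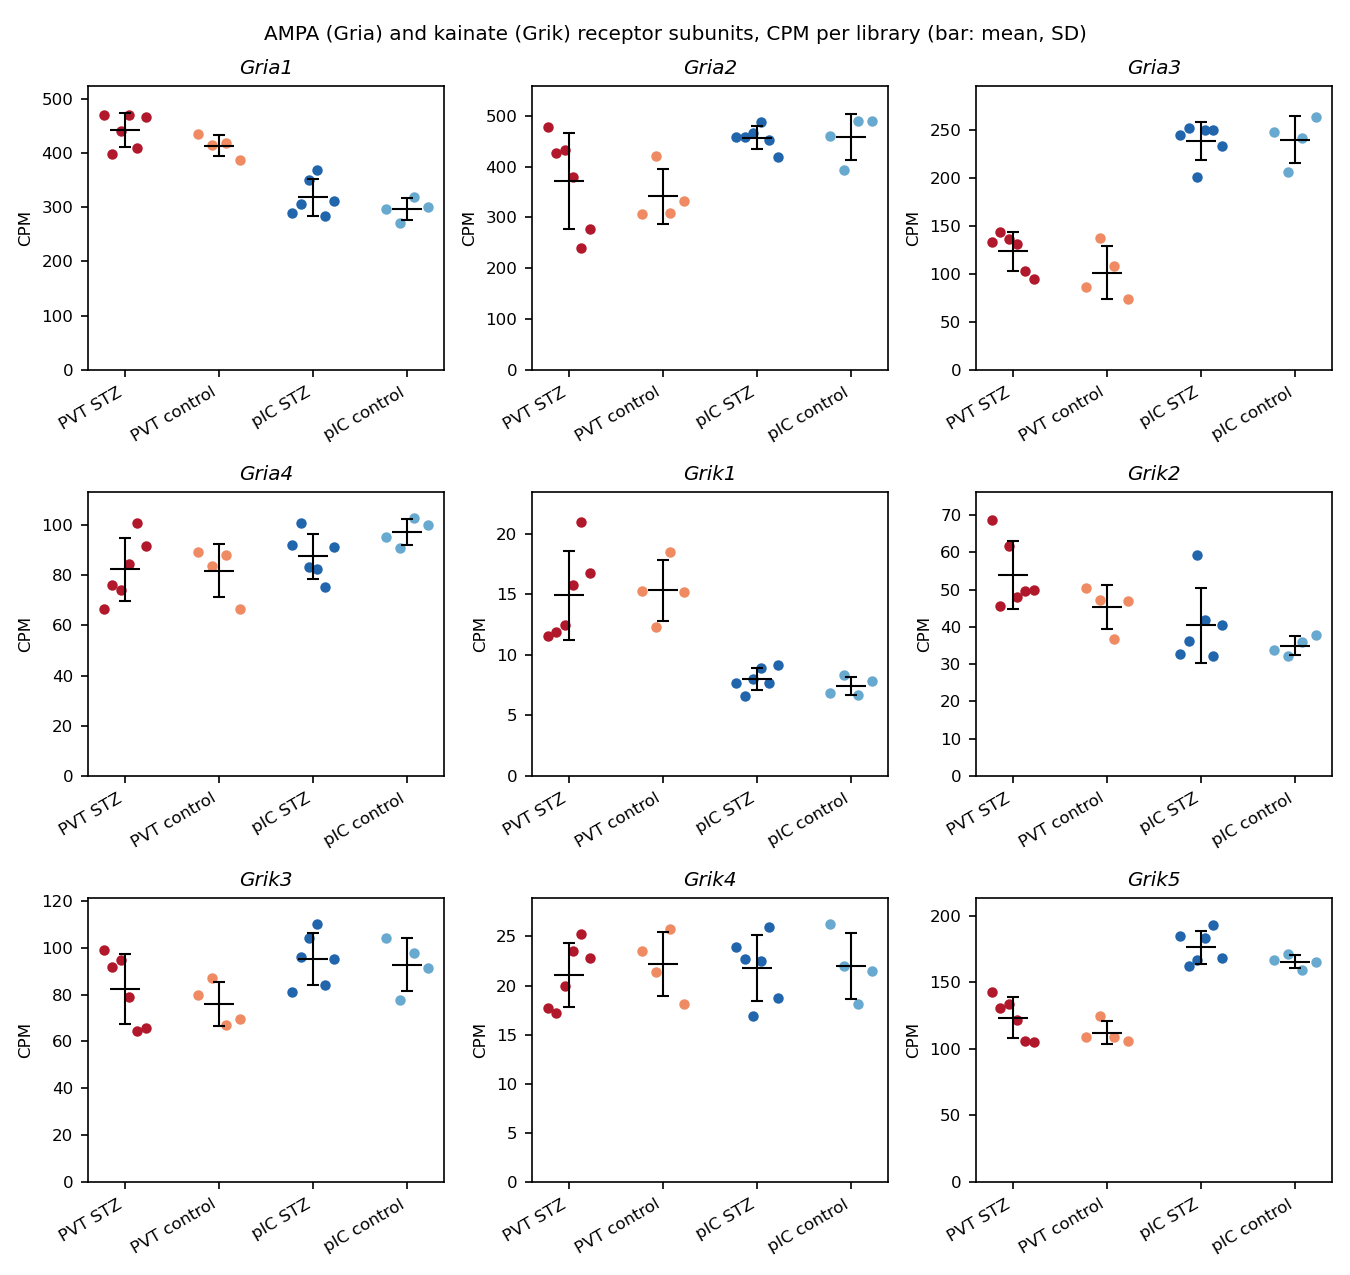
CPM of each AMPA (Gria) and kainate (Grik) subunit in every library, by group, with points for libraries and bars for the mean and SD (n = 6 STZ and 4 control libraries per region); the vertical axes start at 0 and differ between genes. Gria1 and Grik1 lie higher in PVT than in pIC, and Gria3 and Grik5 lie lower, without overlap between the regions.

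PVT was compared with pIC in STZ mice and, separately, in control mice, to describe how the subunits differ between the punches of the 2 regions. These punches hold the mixed marker content given above. In STZ mice 5 of the 9 members were called at an adjusted p under 0.05, 3 higher in PVT (Gria1, Grik1 and Grik2) and 2 lower (Gria3 and Grik5). Of all 16489 genes tested in that comparison, 49.1% were called. In control mice 7 of the 9 were called, the same 3 higher and 4 lower (Gria2, Gria3, Grik3 and Grik5), where 47.8% of 16614 genes were called. Groups did not overlap for 4 members in STZ mice, against 27.8% of all genes, and for 5 members in control mice, against 45.4%. The first share of calls lies near that of all genes and the second above it, and nothing particular to the receptor genes is read from these counts. The members' median log2 fold change was -0.09 in STZ mice and -0.24 in control mice, against 0.02 over all genes tested in each.

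Of the AMPA subunits, Gria1 was the one that was higher in PVT. In STZ mice it had a lowest, median and highest value of 398, 453 and 470 CPM in PVT and 284, 308 and 368 CPM in pIC. Control mice had 434, 415, 418 and 386 CPM in PVT and 297, 270, 319 and 300 CPM in pIC. Each PVT library was above each pIC library. Gria1 had a log2 fold change of 0.47 (SE 0.0708, edgeR adjusted p = 0.000127) in STZ mice and 0.49 (SE 0.0745, edgeR adjusted p = 0.000367) in control mice, which is 1.39-fold and 1.4-fold.

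Gria3, which forms AMPA receptors together with Gria2, had the largest regional difference among the AMPA subunits. It had a lowest, median and highest value of 94.4, 132 and 144 CPM in PVT and 201, 247 and 252 CPM in pIC of STZ mice. Gria3 had 86.9, 138, 108 and 73.5 CPM in PVT and 248, 206, 242 and 264 CPM in pIC of control mice. The regions did not overlap, and within PVT the values spread widely, with control replicate 2 well above the other 3 control libraries. Its log2 fold change was -0.95 (SE 0.0996, edgeR adjusted p = 1.03e-05) in STZ mice and -1.23 (SE 0.178, edgeR adjusted p = 0.000508) in control mice.

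Gria2 was lower in PVT of control mice, with 307, 421, 308 and 332 CPM in PVT and 460, 393, 490 and 490 CPM in pIC. PVT control replicate 2 lay above the lowest pIC library, so the groups overlapped. It was called at a log2 fold change of -0.41 (SE 0.113, edgeR adjusted p = 0.0113). In STZ mice its lowest, median and highest values were 239, 403 and 478 CPM in PVT and 418, 458 and 488 CPM in pIC. The PVT libraries were spread more widely (SD 94.3 CPM) than the pIC libraries (SD 22.7 CPM), and the log2 fold change of -0.30 (95% interval -0.61 to 0.01) was not called (edgeR adjusted p = 0.103). It was called without PVT STZ replicate 1 (log2 fold change -0.39, edgeR adjusted p = 0.0374).

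Gria4, an AMPA subunit with fast kinetics known from interneurons and thalamic relay cells, was not called in either. In STZ mice its median was 80.4 CPM (66.7 to 101) in PVT and 87.4 CPM (75.3 to 101) in pIC, and the groups overlapped. In control mice it had 89.4, 83.7, 88 and 66.5 CPM in PVT and 95.4, 90.8, 103 and 100 CPM in pIC, which do not overlap. The log2 fold change was -0.09 (95% interval -0.30 to 0.12, edgeR adjusted p = 0.478) in STZ mice and -0.24 (95% interval -0.44 to -0.03, edgeR adjusted p = 0.0542) in control mice. The value in control mice lies beside the threshold. It was called without PVT control replicate 1 (edgeR adjusted p = 0.0413) or 3 (0.0461) and in 4 of the other alternative settings.

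Of the kainate subunits, Grik1 had the largest regional difference and was higher in PVT. It had a lowest, median and highest value of 11.6, 14.2 and 21 CPM in PVT and 6.6, 7.86 and 9.14 CPM in pIC of STZ mice. The control libraries had 15.3, 12.3, 18.5 and 15.2 CPM in PVT and 6.87, 8.35, 6.72 and 7.81 CPM in pIC. All PVT libraries were above all pIC libraries. This gave Grik1 a log2 fold change of 0.90 (SE 0.148, edgeR adjusted p = 0.000252) in STZ mice and 1.05 (SE 0.134, edgeR adjusted p = 0.000128) in control mice, which is 1.87-fold and 2.07-fold.

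Grik2, the most studied pore-forming kainate subunit, was also higher in PVT. It had a lowest, median and highest value of 45.6, 49.8 and 68.6 CPM in PVT and 32.1, 38.2 and 59.3 CPM in pIC of STZ mice, and the groups overlapped through pIC STZ replicate 3 alone. Grik2 had 50.3, 47.2, 36.7 and 47 CPM in PVT and 33.9, 32.2, 35.9 and 37.9 CPM in pIC of control mice, where PVT control replicate 3 fell within the pIC range. The log2 fold change was 0.42 (SE 0.152, edgeR adjusted p = 0.0379) in STZ mice and 0.38 (SE 0.0977, edgeR adjusted p = 0.00787) in control mice. The call in STZ mice was lost without PVT STZ replicate 1 (edgeR adjusted p = 0.0899), 3 (0.0854), 5 (0.0502) or 6 (0.0527) and without pIC STZ replicate 1 (0.0814), 2 (0.0774), 4 (0.0566), 5 (0.0813) or 6 (0.0611). It was also lost with no filter on low counts (edgeR adjusted p = 0.0899).

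Grik5 was lower in PVT. It had a lowest, median and highest value of 105, 127 and 143 CPM in PVT and 162, 176 and 193 CPM in pIC of STZ mice. In control mice it had 109, 125, 109 and 106 CPM in PVT and 167, 171, 159 and 165 CPM in pIC, and the regions were apart in both sets of mice. The log2 fold change was -0.52 (SE 0.0777, edgeR adjusted p = 0.000135) in STZ mice and -0.55 (SE 0.0706, edgeR adjusted p = 0.00013) in control mice. Grik4, the other partner subunit, had a median of 21.4 CPM in PVT and 22.6 CPM in pIC of STZ mice, and of 22.5 CPM in PVT and 21.7 CPM in pIC of control mice. Its log2 fold change was -0.05 (95% interval -0.31 to 0.21) in STZ mice and 0.02 (95% interval -0.26 to 0.31) in control mice, so these data leave room for differences of up to about that size.

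Grik3, a kainate subunit of low agonist affinity, overlapped between regions. Its lowest, median and highest values were 64.6, 85.4 and 99.1 CPM in PVT and 81.2, 95.6 and 110 CPM in pIC of STZ mice. Control mice had 79.8, 87.2, 67 and 69.6 CPM in PVT and 104, 77.9, 97.9 and 91.3 CPM in pIC. The log2 fold change was -0.20 (edgeR adjusted p = 0.161) in STZ mice and -0.28 (edgeR adjusted p = 0.0458) in control mice, and the call in control mice was lost without PVT control replicate 1 (edgeR adjusted p = 0.0553), 3 (0.107) or 4 (0.0956) and without pIC control replicate 1 (0.133), 3 (0.106) or 4 (0.079). It was also lost with upper quartile scaling (edgeR adjusted p = 0.111) and with a replicate block (0.0851).

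No member was called when the difference was tested against a minimum of 2-fold (edgeR glmTreat), in which 3.6% of all genes were called in STZ mice and 5.25% in control mice. At an unadjusted p under 0.05, that test gave 0 members in STZ mice and 1 in control mice, Gria3 (adjusted p = 0.39). The share of all genes at that unadjusted p was not counted, so nothing is read from these counts. Gria3 was called over 2-fold in control mice when PVT control replicate 2 was left out, which makes 1 member.

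**Figure D2:**
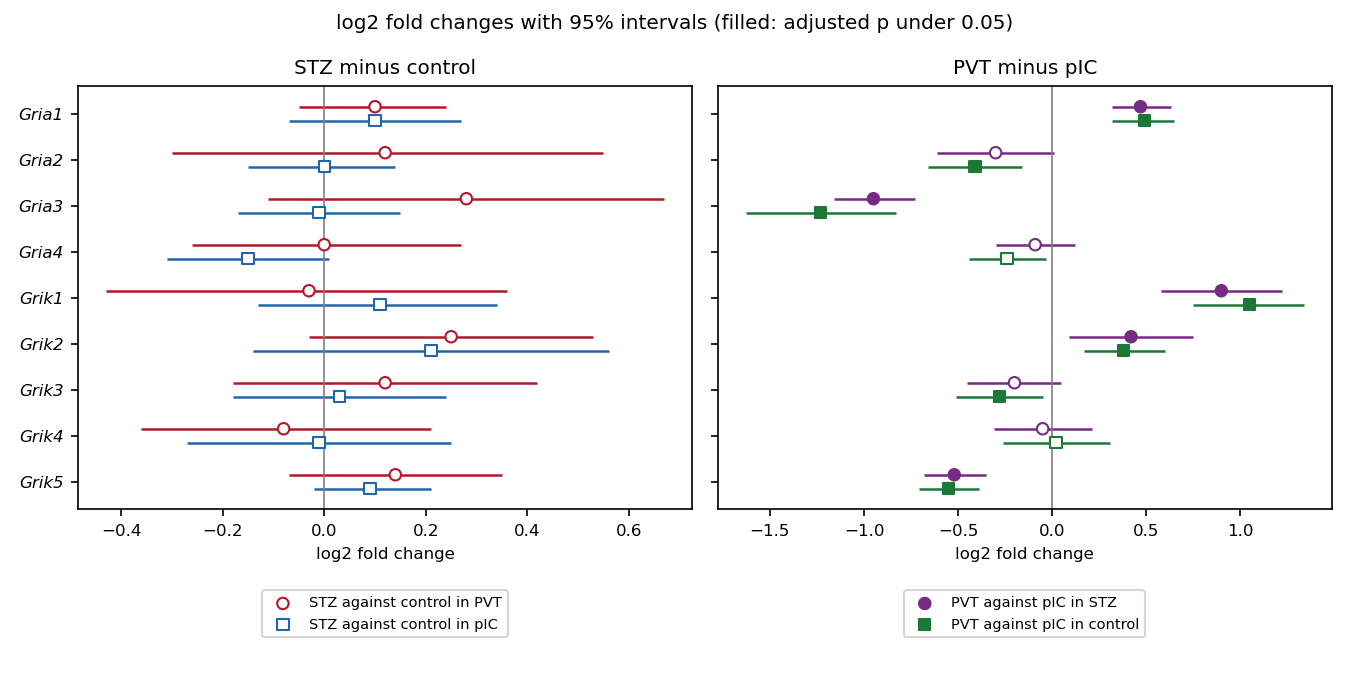
log2 fold changes of the 9 subunits with 95% intervals (horizontal axes), for STZ minus control on the left (circles PVT, squares pIC) and PVT minus pIC on the right (circles STZ mice, squares control mice); filled points are called at an adjusted p under 0.05. All treatment intervals include 0, and the regional intervals of Gria1, Gria3, Grik1, Grik2 and Grik5 exclude it in both sets of mice.

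The balance of Gria1 against Gria2 was taken as the ratio of their counts within a library, which needs no scaling between libraries. In STZ mice the ratio was 0.985, 0.935, 1.02, 1.23, 1.71 and 1.67 in PVT and 0.633, 0.665, 0.752, 0.755, 0.628 and 0.744 in pIC. In control mice it was 1.41, 0.985, 1.36 and 1.16 in PVT and 0.646, 0.688, 0.651 and 0.611 in pIC. Every PVT library had more Gria1 counts relative to Gria2 than every pIC library. The log2 ratio averaged 0.29 ± 0.39 in PVT and -0.53 ± 0.13 in pIC of STZ mice (SD, n = 6 each), a difference of 0.82 or 1.76-fold. A two-sided exact permutation test gave p = 0.00216, the smallest that 924 splits can give, and 0.00866 after adjustment over 4 ratio comparisons. In control mice it averaged 0.28 ± 0.24 in PVT and -0.63 ± 0.07 in pIC (SD, n = 4 each), a difference of 0.91 with an exact p = 0.0286, also the smallest possible, and 0.0571 after adjustment, which missed the threshold.

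STZ and control mice did not differ in the ratio beyond its spread. In PVT the mean difference was 0 (exact permutation p = 0.986). In pIC it was 0.10, with -0.53 ± 0.13 in STZ and -0.63 ± 0.07 in control libraries (exact permutation p = 0.195, 0.26 after adjustment). The design allows p down to 0.00476 in these comparisons.

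**Figure D3:**
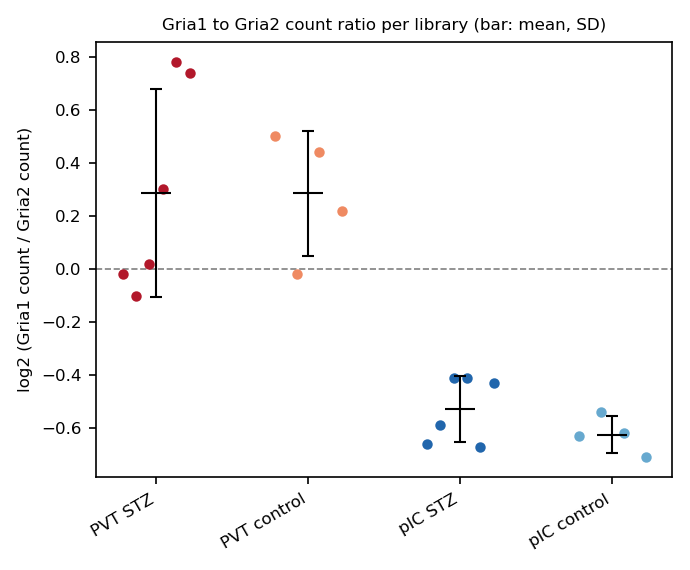
Ratio of Gria1 to Gria2 counts on a log2 vertical axis in every library, by group, with points for libraries and bars for the mean and SD (n = 6 STZ and 4 control libraries per region). All 10 pIC libraries lie below 0 and below all 10 PVT libraries, and the PVT libraries spread the most, between -0.1 and 0.78.

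Within PVT the subunits were set beside the marker content of the punch. The thalamus neuron score (mean log2 CPM of the 13 markers) was 4.1 to 4.52 in the 4 lowest PVT libraries, which were STZ replicates 1, 2 and 3 and control replicate 2, and 4.56 to 6.87 in the other 6 PVT libraries. Gria2 was at 421 to 478 CPM in the 4 libraries and at 239 to 380 CPM in the other 6. Gria3 was at 133 to 144 CPM and 73.5 to 131 CPM, in the same order. Grik3 (87.2 to 99.1 against 64.6 to 79.8 CPM) and Grik5 (125 to 143 against 105 to 122 CPM) were placed likewise. No gap in score parts the 2 sets, as PVT control replicate 4 came next at 4.56. That library had Gria2 at 332, Gria3 at 73.5, Grik3 at 69.6 and Grik5 at 106 CPM. Counted with the 4 libraries, it would make the sets overlap for each of these genes.

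Grik1 had the opposite placing, with 11.6 to 12.5 CPM in the 4 libraries and 15.2 to 21 CPM in the other 6. These 5 genes thus did not overlap between the 2 sets of PVT libraries. For each of them the 4 libraries lay nearer to the pIC values. The share of all genes that separate in this way was not counted, so nothing particular to the receptor genes is read from it. Gria1 (398 to 470 against 386 to 469 CPM), Gria4, Grik2 and Grik4 overlapped. The 4 libraries were picked by their thalamus score and share other features. Their score of hypothalamus markers was -1.33 to 0.01, against 1.38 to 4.53 in the other 6. Their score of habenula markers was -0.42 to 0.2, against 0.57 to 3.81. Their striatal score was 6.15 to 7.72, against 3.74 to 6.45 in the other 6, and these ranges overlap. The part of punch content in the subunit levels was not tested.

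The STZ libraries among these 4 were replicates 1, 2 and 3. Without them, PVT against pIC in STZ mice gave a log2 fold change of -0.62 for Gria2 (edgeR adjusted p = 0.00152) and -0.45 for Grik3 (edgeR adjusted p = 0.00417). Both were called. Grik2 had 0.28 and was not called (edgeR adjusted p = 0.225). The libraries left out held the highest Gria2 and Grik3 values of PVT STZ, so their removal had to lower the PVT means. These calls of Gria2 and Grik3 are therefore not read as a test. Without those libraries 6 members were called in STZ mice. Over all alternative settings of that comparison, 7391 to 8813 genes were called in all. Gria1, Gria3, Grik1 and Grik5 were called in both sets of mice in each alternative setting that was run.

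**Figure D4:**
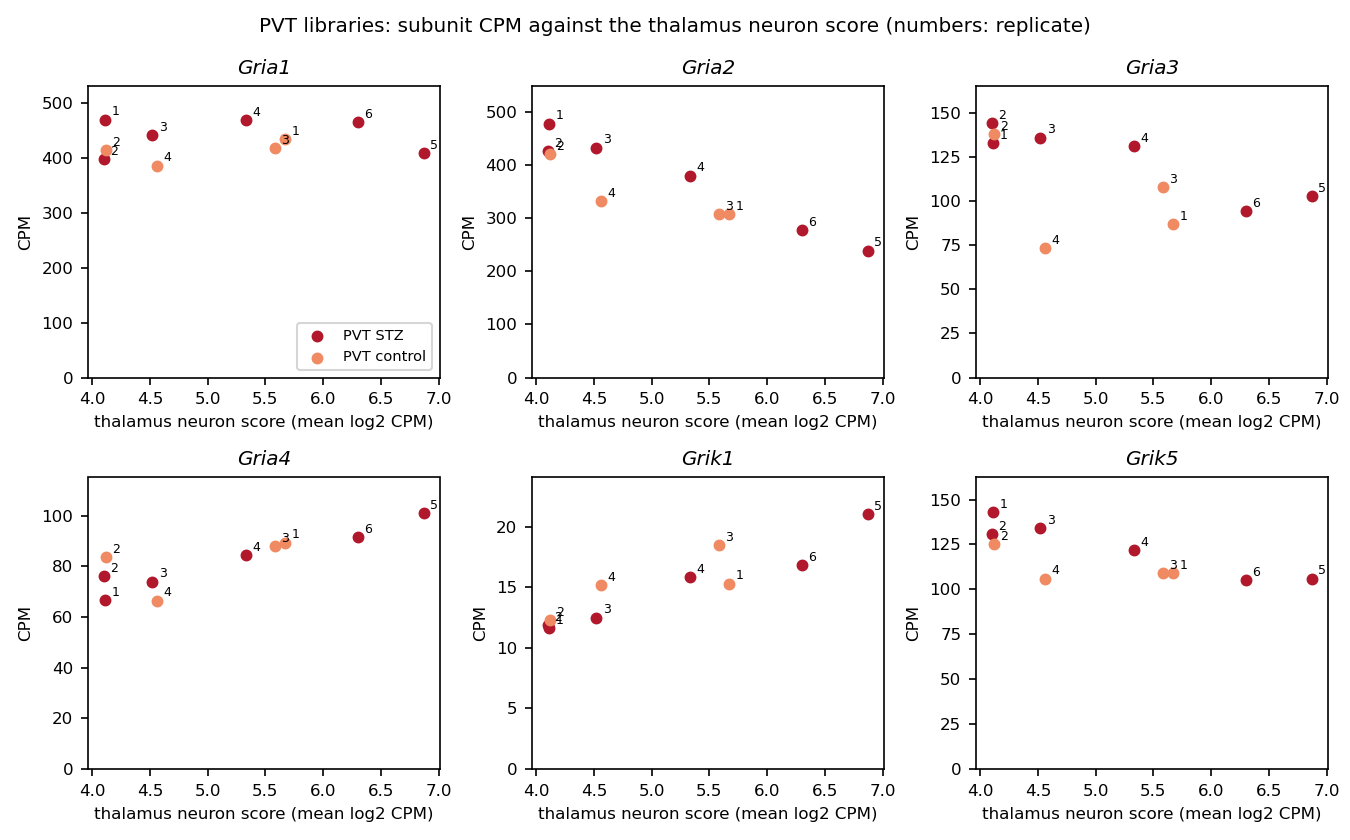
CPM of 6 subunits (vertical axes, from 0) against the thalamus neuron score of the punch (horizontal axes, mean log2 CPM of 13 markers) in the 10 PVT libraries, dark points for STZ and light points for control, with replicate numbers. Gria2, Gria3 and Grik5 lie highest in the 4 libraries with the lowest score, Grik1 lies lowest there, and Gria1 stays between 386 and 470 CPM across the range.

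The STZ comparison in PVT asked whether the receptor subunits differ in PVT punches of mice given STZ to model painful diabetic neuropathy. None of the 9 members was called (edgeR), where 2.07% of 17076 genes were called, and 0 had an unadjusted p under 0.05, where 17.8% of all genes did. DESeq2, which called 904 genes in all, and limma-voom also called 0 members. No member had groups that did not overlap, against 6.2% of all genes. The members' median log2 fold change was 0.12, with 7 of 9 above 0, against a median of 0 over all genes tested.

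The 2 members with the smallest p in PVT were Grik2 and Gria3. Grik2 had 68.6, 45.6, 61.8, 48, 49.7 and 49.9 CPM in STZ and 50.3, 47.2, 36.7 and 47 CPM in control libraries, with STZ replicates 1 and 3 above the rest. This is a log2 fold change of 0.25 (95% interval -0.03 to 0.53, edgeR adjusted p = 0.347). Gria3 averaged 124 ± 20 CPM in STZ and 102 ± 28.3 CPM in control libraries (SD, n = 6 and 4), a log2 fold change of 0.28 (95% interval -0.11 to 0.67, edgeR adjusted p = 0.447). Gria1 averaged 442 ± 31.9 CPM in STZ and 413 ± 19.9 CPM in control libraries (SD, n = 6 and 4), and its interval of -0.05 to 0.24 was the narrowest of the 9. Those of Gria2 (-0.30 to 0.55) and Grik1 (-0.43 to 0.36) were the widest. The other intervals were -0.26 to 0.27 for Gria4, -0.18 to 0.42 for Grik3, -0.36 to 0.21 for Grik4 and -0.07 to 0.35 for Grik5.

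Marker content also differed between the PVT groups. The summed CPM of 9 choroid plexus markers was 1320 to 3280 in STZ and 2910 to 5920 in control libraries, and that of 8 ependymal markers was 65.8 to 90.7 in STZ and 107 to 143 in control libraries. The oligodendrocyte score (mean log2 CPM of 8 markers) was 8.01 to 8.46 in STZ and 8.51 to 8.8 in control libraries. The ependymal sums and the oligodendrocyte scores did not overlap between the groups, and the choroid plexus sums did. The thalamus scores overlapped, at 4.1 to 6.87 in STZ and 4.12 to 5.67 in control libraries. Of the 4 libraries lowest in thalamus score, 3 were STZ libraries. Without those 4, the log2 fold change of Gria2 was -0.08 and that of Grik3 was -0.05, and again no member was called. That fit kept STZ replicates 4, 5 and 6 and control replicates 1, 3 and 4. It called 70 genes in all, against 353 with all PVT libraries. The part of choroid plexus, ependymal and oligodendrocyte content was not tested beyond a fit with the choroid plexus score as covariate. That fit also called no member, and 61 genes in all. Fits that call so few genes say little about the members.

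In pIC none of the 9 members was called either (edgeR), where 1.4% of 16189 genes were called, and 0 had an unadjusted p under 0.05, where 11.8% of all genes did. DESeq2, with 468 genes called in all, and limma-voom, with 367, called 0 members. No member had groups apart, against 4.28% of all genes, and the members' median log2 fold change was 0.03, against 0 over all genes tested. Gria4 had the smallest p. Its CPM was 92, 101, 83.5, 82.6, 75.3 and 91.4 in STZ and 95.4, 90.8, 103 and 100 in control libraries, with 3 STZ libraries below all of the control libraries. The estimate for Gria4 was a log2 fold change of -0.15 (95% interval -0.31 to 0.01, edgeR adjusted p = 0.451).

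Gria2 averaged 457 ± 22.7 CPM in STZ and 458 ± 45.8 CPM in control libraries of pIC (SD, n = 6 and 4), and its interval of -0.15 to 0.14 on the log2 scale bounds a difference to that size. The intervals were -0.07 to 0.27 for Gria1, -0.17 to 0.15 for Gria3, -0.13 to 0.34 for Grik1, -0.14 to 0.56 for Grik2, -0.18 to 0.24 for Grik3, -0.27 to 0.25 for Grik4 and -0.02 to 0.21 for Grik5. The widest was that of Grik2, where STZ replicate 3 had 59.3 CPM and the other 5 had 32.1 to 41.7 CPM. That library also had the highest striatal marker score of the pIC libraries, 7.64.

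The difference between the regions in the STZ effect was tested as an interaction over all 20 libraries. It was called for 0 members and for 0% of 17427 genes (edgeR), with 0 members and 4.02% of all genes at an unadjusted p under 0.05, and 0 members with DESeq2 and limma-voom. DESeq2 called 4 genes in all. The largest member estimate was that of Gria3, 0.27 (95% interval -0.15 to 0.70, edgeR adjusted p = 1).

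The proteins that accompany the receptors were followed in lists of AMPA auxiliary subunits (17 genes), kainate auxiliary subunits (4 genes), trafficking and anchoring proteins (16 genes) and RNA-editing enzymes (3 genes), together with Grid1, a delta glutamate receptor subunit that links synapses. In PVT 0 of these genes were called for STZ against control (edgeR), where 2.07% of all genes were called. At an unadjusted p under 0.05 there were 1 AMPA auxiliary, 0 kainate auxiliary, 3 trafficking and 0 editing genes, and Grid1. Of all genes, 17.8% had such a p. DESeq2 called 1 gene, Grid1, and limma-voom 0. Grid1 came nearest to the threshold with edgeR. It had 84.1, 71.5, 75.9, 74, 78 and 71.4 CPM in STZ and 65.2, 63.2, 66.2 and 62.3 CPM in control libraries, groups that do not overlap. Its log2 fold change was 0.24 (SE 0.0564, edgeR adjusted p = 0.0595), and it was called with DESeq2 (adjusted p = 0.00428) and with the thalamus score as a covariate (0.0346). Nptx2, a secreted pentraxin that gathers AMPA receptors, had 0.63 (95% interval 0.14 to 1.11, edgeR adjusted p = 0.177). Cnih3, a cornichon auxiliary subunit, had a log2 fold change of 0.42 (edgeR adjusted p = 0.203). Neto2, a kainate auxiliary subunit, had 0.25 (adjusted p = 0.302), and Adarb2, an editing enzyme homologue without known activity, had 0.49 (adjusted p = 0.458).

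The median log2 fold changes of the lists in PVT were 0.20, 0.34, 0.22 and 0.47, in the order above. A positive value was found in 15 of 17 AMPA auxiliary genes and 15 of 16 trafficking genes, against a median of 0 over all genes tested. The choroid plexus, ependymal and oligodendrocyte marker values given above differed between the same groups, and their part in these medians was not tested.

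In pIC 1 gene of these lists was called for STZ, where 1.4% of all genes were called. Shisa7, an AMPA auxiliary subunit also found with GABA-A receptors, had 104, 106, 113, 120, 113 and 103 CPM in STZ and 85.5, 90.6, 95 and 93.1 CPM in control libraries. All STZ libraries were above all control libraries. The log2 fold change was 0.27 (SE 0.0545, edgeR adjusted p = 0.0243), a rise of 1.21-fold. The call was lost without control replicate 1 (edgeR adjusted p = 0.1), replicate 2 (0.0724) or replicate 4 (0.0672), and with all 20 libraries in 1 fit (0.526). The genes of smallest p in the other lists were Neto1 (log2 fold change 0.18, edgeR adjusted p = 0.357), Dlg1 (0.15, 0.38) and Adarb1 (0.06, 0.817), none called. C1ql2 did not pass the filter on low counts in pIC. For the interaction no gene of the lists was called, and the largest estimate among the named genes was that of Nptx2, 0.70 (95% interval 0.18 to 1.23, edgeR adjusted p = 1).

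Between regions the log2 fold changes of the partner genes other than C1ql2 (described below) ran between -1.30 and 2.22 in STZ mice and between -1.80 and 2.57 in control mice, and those of the subunits between -0.95 and 0.90 in STZ mice and between -1.23 and 1.05 in control mice. Of the 17 AMPA auxiliary subunits, 3 were higher and 9 lower in PVT of STZ mice, and 3 were higher and 8 lower in control mice, against 26% higher and 23.1% lower of all genes in STZ mice and 25.5% and 22.4% in control mice. Cacng5, a transmembrane AMPA receptor regulatory protein (TARP), was the leading gene on the higher side. It had a lowest, median and highest value of 34.5, 40.7 and 43.5 CPM in PVT and 5.04, 6.8 and 15.1 CPM in pIC of STZ mice. Control mice had 48.4, 40.6, 37.6 and 51.2 CPM in PVT and 5.66, 7.53, 10.4 and 6.7 CPM in pIC. The regions were far apart in both sets of mice, with a log2 fold change of 2.22 (SE 0.236, edgeR adjusted p = 1.59e-05) and 2.57 (SE 0.181, edgeR adjusted p = 7.58e-06). It was called over 2-fold in both, with adjusted p of 0.00103 and 9.71e-05.

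Shisa6, which slows AMPA receptor desensitisation, averaged 39 ± 8.74 CPM in PVT and 15.5 ± 3.61 CPM in pIC of STZ mice (SD, n = 6 each). It averaged 36.8 ± 4.5 CPM in PVT and 13 ± 1.66 CPM in pIC of control mice (SD, n = 4 each), and the TARP gene Cacng4 was higher in PVT too (log2 fold change 0.86 and 1.04). The lower side held the TARP genes Cacng2, known as stargazin, and Cacng3, with log2 fold changes of -0.63 and -1.03 in STZ mice and -0.87 and -1.44 in control mice. It also held Cnih3 (-1.08 and -1.58), Gsg1l (-1.18 and -1.50) and Frrs1l (-0.84 and -1.03), which acts in AMPA receptor assembly. In control mice Cacng3, Cnih3 and Gsg1l were called lower over 2-fold, and Cacng5 and Shisa6 higher. In STZ mice Cacng5 was the 1 AMPA auxiliary gene called over 2-fold.

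Of the 4 kainate auxiliary genes, C1ql3, Neto1 and Neto2 were lower in PVT in both sets of mice. Among all genes, 23.1% were called lower in STZ mice and 22.4% in control mice. C1ql2 had its higher values in PVT. C1ql2, a secreted C1q-like protein that recruits kainate receptors, had 2.67, 3.08, 9.97, 22.6, 24.3 and 25.7 CPM in PVT and 0.195, 0.334, 0.612, 0.492, 0.254 and 0.275 CPM in pIC of STZ mice. In control mice it had 22.4, 7.42, 25.5 and 9.81 CPM in PVT and 0.763, 0.241, 0.196 and 0.323 CPM in pIC. It passed the filter on low counts through the PVT libraries alone, and within PVT STZ it was lowest in the 3 libraries with the lowest thalamus score. A gene kept in this way had to differ, so its values are a description and no test of them is read.

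Its relative C1ql3 went the other way, with a mean of 32.8 ± 10.8 CPM in PVT and 74.6 ± 21.6 CPM in pIC of STZ mice (SD, n = 6 each) and 23.7 ± 11.7 CPM in PVT and 72.6 ± 13.6 CPM in pIC of control mice (SD, n = 4 each). The call of C1ql3 in control mice was lost with a replicate block (log2 fold change -1.73, edgeR adjusted p = 0.0649). Neto1 and Neto2, which bind kainate receptors and change their kinetics, were lower in PVT, with log2 fold changes of -0.58 and -0.42 in STZ mice and -0.82 and -0.44 in control mice. The call of Neto1 in STZ mice was lost without any 1 of the 6 pIC STZ libraries (edgeR adjusted p = 0.0548 to 0.077) and without PVT STZ replicate 2 (0.0551), 4 (0.064) or 6 (0.0796). It was also lost with upper quartile scaling (edgeR adjusted p = 0.0563) and with no filter on low counts (0.104).

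Of the 16 trafficking and anchoring genes, 0 were higher and 10 lower in PVT of STZ mice. In control mice 0 were higher and 12 lower. Of all genes, 26% were higher and 23.1% lower in STZ mice, and 25.5% and 22.4% in control mice. The pentraxin receptor Nptxr averaged 369 ± 64.6 CPM in PVT and 907 ± 182 CPM in pIC of STZ mice (SD, n = 6 each) and 350 ± 110 CPM in PVT and 948 ± 59.9 CPM in pIC of control mice (SD, n = 4 each). Its log2 fold change was -1.30 (SE 0.151, edgeR adjusted p = 2.55e-05) and -1.43 (SE 0.22, edgeR adjusted p = 0.000802). Nptx1 (-1.27 and -1.46), Nptx2 (-0.85 and -1.56), the kinase gene Camk2a (-1.06 and -1.35) and the scaffold gene Dlg4, which encodes PSD-95 (-0.51 and -0.69), were lower in both sets of mice. The median of the list was -0.39 in STZ mice and -0.51 in control mice, against 0.02 over all genes. The cortical, thalamic, choroid plexus, ependymal and oligodendrocyte marker values given above differ between the same groups. Their part in the regional differences was not tested.

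Of the editing enzymes, Adarb1 was not called between regions, at 276 ± 118 CPM in PVT and 214 ± 16.5 CPM in pIC of STZ mice (SD, n = 6 each) and 200 ± 48 CPM in PVT and 206 ± 16 CPM in pIC of control mice (SD, n = 4 each). Adarb1 had a log2 fold change of 0.37 (edgeR adjusted p = 0.204) in STZ mice and -0.03 (edgeR adjusted p = 0.876) in control mice. Adarb2 was higher in PVT in both, by 0.99 in STZ mice (edgeR adjusted p = 0.00601) and by 0.44 in control mice (edgeR adjusted p = 0.0175). The call in control mice was lost without PVT control replicate 1 (edgeR adjusted p = 0.053) or 3 (0.0547).

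**Figure D5:**
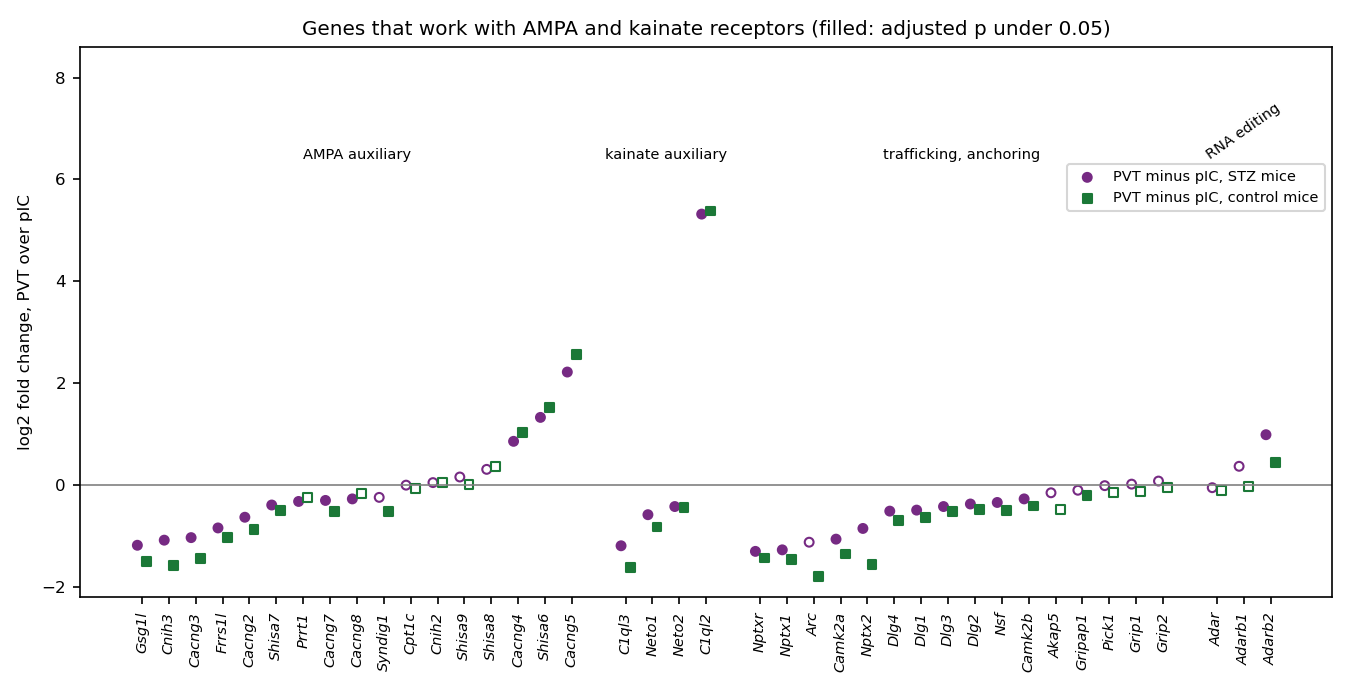
log2 fold changes of PVT over pIC (vertical axis) for the genes of 4 lists of receptor partners, circles for STZ mice and squares for control mice, filled where called at an adjusted p under 0.05. C1ql2, which passed the filter on low counts through PVT alone, Cacng5 and Shisa6 stand highest. The fill of the C1ql2 points follows the same rule and is not read as a test. Of the 16 trafficking and anchoring genes 2 lie above 0 in STZ mice and 0 in control mice.

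The genes whose levels over the 20 libraries were most like those of a member were named for the 2 members whose group means spanned over 1 on the log2 scale, Gria3 (1.27) and Grik1 (1.02). Likeness was the root mean square difference of log2 CPM, each gene centred on its mean, over 11792 genes of at least 5 CPM. For Gria3 the 3 nearest were Phf24 (0.0852), Arhgap32 (0.0911) and Rbfox3 (0.094). For Grik1 they were Rit2 (0.152), Tspyl2 (0.157) and Fgf1 (0.164), so the nearest genes of Grik1 lay farther from it than those of Gria3. The libraries share region and punch content, and the values are a description.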

How the data were processed

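Poly(A)-selected, stranded libraries of PVT and pIC punches (20 in all) were grouped by their labels. The authors deposited raw counts for 57180 Ensembl identifiers, with 1 column for each library. The genome build is GRCm39 (mm39), per the submitters' processing notes. The sources used here name no aligner, counting program, strand setting or annotation, so reads of overlapping or antisense genes may be shared. GENCODE M21 (GRCm38) served for symbols (51884 identifiers matched), exon lengths and transcript sequence only.

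The 2 gene families and the lists were chosen as subjects with earlier results of these data known, although no value decided which genes of a family were taken. Depth was 17.9 M to 25.5 M counts for each library, and no libraries of a group were duplicates (lowest chi-square per degree of freedom 4). Each comparison used only its own groups in edgeR 4.0.16 (R 4.3.3), by the robust quasi-likelihood test on TMM-scaled counts of genes kept by filterByExpr (at least 10 counts, total at least 15). The interaction of region and treatment used all libraries, and glmTreat tested against a minimum fold of 2. Adjusted p is the Benjamini-Hochberg value over all genes tested, called under 0.05, and intervals are 95%. Log2 CPM for scores and likeness used a prior count of 2. The log2 ratio of Gria1 to Gria2 counts was tested by two-sided exact permutation. The code was tested on simulated data.

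All 9 members were named. Of the partner lists, genes past the threshold could be named, or the gene of smallest p where none passed. Outside this rule, Adarb1, which encodes ADAR2, was described between regions although it was not called. For likeness the 3 nearest genes were named for members whose group means spanned over 1 (log2). Alternatives were RLE and upper quartile scaling, no filter, DESeq2 1.42.0, limma-voom (limma 3.58.1) with quality weights, a replicate block, all libraries in 1 fit, marker scores as covariates, and leaving out single libraries or the 4 PVT libraries lowest in thalamus markers, which for the interaction and the regions was chosen after seeing the data. One item of the partner lists is not reported here.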

Additional observations from a re-analysis of the deposited data

Results flagged for a closer look

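Of 40 sets of values examined (the 9 subunits and the Gria1 to Gria2 ratio in each of the 4 groups), 3 held a library far from the others of its group, and chance alone marks about 1 set in 20. In pIC STZ replicate 3, Gria3 was at 201 CPM, the lowest of a range of 201 to 252 CPM, and its gap to the next library took 0.629 of that range. The same library had Grik2 at 59.3 CPM, the highest of a range of 32.1 to 59.3 CPM, with a gap of 0.646 of the range. Its striatal score of 7.64 and its thalamus score of 3.36 were the highest of the pIC libraries, and its cortical score of 6.23 was the lowest. In PVT control replicate 2, Grik5 was at 125 CPM, the highest of a range of 106 to 125 CPM, with a gap of 0.853 of the range. That library had the lowest thalamus score of its group, 4.12. Whether punch content accounts for these values was not tested.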

How the results depend on the processing

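The count of members called for STZ stayed at 0 in 21 alternative settings in PVT, in 19 in pIC and in 27 for the interaction. Between regions it ran between 4 and 6 in STZ mice and between 6 and 8 in control mice, and over 2-fold it was 0 in STZ mice and 1 in control mice without PVT control replicate 2, the only control library among the 4 lowest in thalamus genes. The genes called in all between regions ran between 7391 and 8813 in STZ mice and between 6771 and 8390 in control mice.

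No value whose sign reversed was called in any of these settings. Several had main estimates at or near 0, such as 0 for Gria4 in PVT and Gria2 in pIC, and -0.01 for Gria3 and Grik4 in pIC. Others lay farther from 0, such as Gria2 in PVT (0.12). For STZ in PVT the log2 fold change of Gria4 was -0.05 with upper quartile scaling, -0.06 with limma-voom, 0 with all libraries in 1 fit, -0.04 with the thalamus and -0.08 with the choroid plexus score as covariate. With the striatal score as covariate it was -0.01 for Gria2 and 0.04 for Grik1, and when the 4 PVT libraries of lowest thalamus score were left out it was -0.08 for Gria2, 0.13 for Grik1, -0.05 for Grik3 and 0.09 for Grik4. Leaving out single libraries gave -0.08 to 0.06 for Gria4, -0.16 to 0.07 for Grik1 and -0.16 to 0 for Grik4. For STZ in pIC Gria2 was at 0 with no filter and with all libraries in 1 fit, and Grik3 at -0.01 with limma-voom. The striatal and cortical scores as covariates gave 0.01 and 0.03 for Gria3, -0.01 and -0.03 for Grik3 and 0.06 and 0.08 for Grik4. Leaving out single libraries gave -0.07 to 0.03 for Gria2, -0.07 to 0.04 for Gria3, -0.04 to 0.09 for Grik3 and -0.09 to 0.08 for Grik4.

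For the interaction Gria1 was at 0 with limma-voom. Without the 4 PVT libraries it was 0 for Gria1, -0.09 for Gria2, 0.02 for Grik1, -0.08 for Grik2, -0.10 for Grik3, 0.09 for Grik4 and -0.07 for Grik5. Leaving out single libraries gave -0.05 to 0.04 for Gria1, -0.06 to 0.18 for Grik2, -0.17 to 0.02 for Grik4 and -0.01 to 0.10 for Grik5. For PVT against pIC Grik4 was at 0 with upper quartile scaling in STZ mice, and when the PVT libraries of lowest thalamus score were left out Gria4 was at 0.07 and Grik4 at 0.12. Leaving out single libraries gave -0.12 to 0.01 for Grik4 in STZ mice and -0.08 to 0.12 in control mice. The log2 ratio of Gria1 to Gria2 differed between STZ and control in PVT by -0.17 as medians and by -0.10 to 0.08 without single libraries, and between PVT and pIC in STZ mice by 0.67 as medians (exact permutation, adjusted p = 0.0519). The cause was not tested in these cases.

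The replicate numbers were not taken as pairs. Deviations from the group mean of PVT and pIC libraries with the same label correlated across genes at -0.09 to 0.21, and those of STZ and control libraries with the same number at -0.26 to 0.44 in PVT and -0.04 to 0.3 in pIC. Of 10 PVT libraries, 5 correlated best with the pIC library of their own label, namely control replicate 1 and STZ replicates 2, 3, 5 and 6. The candidates were the 4 control or 6 STZ pIC libraries, so unrelated labels would give fewer such matches. Whether a label stands for 1 mouse was not settled, and the main fits between regions and of the interaction leave such pairing out. The replicate block joined libraries of the same label for the regions and the interaction. For STZ against control it joined libraries of the same number, which come from different mice, and STZ replicates 5 and 6 had no partner. With the block, 0 members were called for STZ and for the interaction, and 72 genes in all in PVT, against 353 without it. That fall is not read as the effect of a real pairing. Under the block the STZ log2 fold change was -0.12 for Gria4 in PVT and 0.03 for Gria2 in pIC, the log2 ratio differed by -0.23 for STZ in PVT, and it differed by 0.82 between PVT and pIC in STZ mice (exact sign flips, adjusted p = 0.0625, where 6 pairs allow no smaller value). Between regions in control mice the calls of Grik3 (adjusted p = 0.0851) and C1ql3 (0.0649) were lost.

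Other counts of genes called over the whole table moved by over 1.5 times in some settings, between 61 and 1109 for STZ in PVT and between 128 and 468 for STZ in pIC. The lowest count of any member in a library was 137, for Grik1, and the number of libraries and the spread between punches limit the intervals.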
